A study of Mus musculus with 4 samples.

Results

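DNA replication and DNA repair are carried out by several families of conserved proteins, and m6A peaks were examined in the transcripts of 61 genes of these families among 21951 protein-coding genes of GENCODE M21. The genes were those whose symbol begins with Fanc, Xrcc, Ercc or Rad5, those named Mcm, Orc or Rfc followed by digits alone, and Brca1, Brca2, Atm and Atr. The rule used symbols only and no measured value, but it was set with earlier results of these data known. There were 11 Fanc genes, 6 Xrcc genes, 9 Ercc genes, 11 Rad5 genes, 9 Mcm genes, 6 Orc genes, 5 Rfc genes and the 4 genes chosen by name.

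m6A is a methyl mark on adenosine inside mRNA, and in meRIP-seq the RNA fragments that carry it are pulled down with an antibody and sequenced next to unselected input RNA. The cells were c-Kit+ foetal liver cells of C57BL/6 mice, which were enriched with magnetic beads and are rich in hematopoietic stem and progenitor cells. By the methods of the study, they came from the Ythdf2 CTL genotype, that is Ythdf2 fl/fl without Cre, where the floxed allele also carries GFP fused to YTHDF2, a protein that binds m6A. The series has 2 IP samples and 2 input samples, there is 1 group and no treatment, and whether foetuses were pooled, and their age, is not given in the sources used here.

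A list of peaks was analysed for each IP replicate, 15635 peaks in replicate 1 and 14872 in replicate 2. A gene was counted when the summit of a peak, its highest point, lay in one of its exons. No library total can be read from the lists, but the reads at each summit could be recovered, with a median of 57 IP reads a peak in either replicate. Expression was not analysed, so a gene without a summit can lack the mark, the RNA or the reads to show it. Kit, the marker used for enrichment, and Flt3 had no summit, while the stem and progenitor genes Cd34, Cd48, Gata2, Meis1 and Runx1 had one in both replicates. Of 5 hepatocyte markers, Apoa1 and Hnf4a had a summit in both replicates, Afp in 1 of the replicates, and Alb and Ttr in neither. Of 6 erythroid markers, Epor, Hba-a1, Hbb-bt and Klf1 had one in both replicates, and of 3 macrophage markers Csf1r did, in an exon shared with another gene. The part of other liver cells in the peaks of the genes below was not tested.

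ORC marks replication origins, where the ring-shaped MCM2-7 helicase is loaded, and RFC loads the sliding clamp PCNA for the polymerases. Fanconi anaemia proteins act on crosslinks between the DNA strands, ERCC proteins mostly in nucleotide excision repair, and BRCA1, BRCA2 and several others in homologous recombination, while the Ku proteins encoded by Xrcc5 and Xrcc6 start non-homologous end joining. Inherited loss of the Fanconi anaemia pathway leads to failure of blood stem cells. m6A lies mostly within the motif DRACH, where D stands for any base but C, R for a purine and H for any base but G. Its most frequent form is GGAC. The mark is enriched in long internal exons and around stop codons.

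Several sequences show the surroundings of summits in coding sequence, one for each of 6 genes with peaks in both replicates. Each is the sense strand of GRCm38, 5′ to 3′, over 101 nt centred on the replicate 1 summit inside coding sequence, with GGAC in capitals, or DRACH in Brca2, where no GGAC lay within 200 nt of the summit. They come from exon 11 of Brca2 (chr5:150543188-150543288, plus strand), exon 10 of Brca1 (chr11:101523614-101523714, minus strand), exon 14 of Fancm (chr12:65105249-65105349, plus strand), the last exon of Ercc4 (chr16:13147971-13148071, plus strand), the last exon of Rad54l2 (chr9:106693327-106693427, minus strand) and the last exon of Atm (chr9:53439783-53439883, minus strand).
Brca2: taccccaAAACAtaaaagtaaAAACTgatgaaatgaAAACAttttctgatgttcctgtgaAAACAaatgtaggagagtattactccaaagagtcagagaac
Brca1: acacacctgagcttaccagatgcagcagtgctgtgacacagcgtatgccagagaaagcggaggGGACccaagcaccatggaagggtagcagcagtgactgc
Fancm: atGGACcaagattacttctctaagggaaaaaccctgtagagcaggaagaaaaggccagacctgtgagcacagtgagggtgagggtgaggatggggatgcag
Ercc4: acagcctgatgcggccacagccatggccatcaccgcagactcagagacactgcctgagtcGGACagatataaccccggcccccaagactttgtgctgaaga
Rad54l2: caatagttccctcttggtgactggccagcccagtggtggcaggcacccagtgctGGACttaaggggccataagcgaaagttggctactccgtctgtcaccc
Atm: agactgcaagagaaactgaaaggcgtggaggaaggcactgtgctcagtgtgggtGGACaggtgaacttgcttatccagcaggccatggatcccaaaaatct

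The Brca2 window holds 4 whole DRACH motifs of the forms AAACA and AAACT. In Atm the motif lay 6 nt and 5 nt downstream of the summits of replicates 1 and 2. In Rad54l2 it lay 6 nt and 25 nt downstream, and in Brca1 15 nt and 9 nt downstream. In Ercc4 it lay 12 nt downstream of the summit of replicate 1 and 7 nt upstream of that of replicate 2. In Fancm it lay 46 nt upstream of both summits. Such windows in Ercc6l, Xrcc2 and Rfc3, not printed here, held no GGAC. The sequences are examples, and the share of all summits with a motif nearby is given below.

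Shorter windows of 25 nt show the GGAC nearest to a replicate 1 summit at the stop codon or in the 3′ UTR. One peak was strongly enriched (Fancf), others moderately (Ercc2, Rad52) or weakly (Orc2, Rfc5). The windows are centred on the motif and not on the summit, so its central place is by construction. They do not hold the replicate 1 summit of Rad52 or the replicate 2 summits of Ercc2 and Orc2. They come from Fancf (chr7:51861255-51861279, minus strand), Ercc2 (chr7:19395154-19395178, plus strand), Rad52 (chr6:119922620-119922644, plus strand), Orc2 (chr1:58463713-58463737, minus strand) and Rfc5 (chr5:117379763-117379787, minus strand).
Fancf: atgagcatctGGACagacctcctgg
Ercc2: ctcctgcgcaGGACctggggagggc
Rad52: actctttagaGGACtatagaggaag
Orc2: agatgtcagtGGACtgagatgacac
Rfc5: ggtgactggaGGACagaGGACatgc

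Exonic summits were found in 37 of the 61 genes (60.7%) in replicate 1, where 34.4% of all protein-coding genes had one, and in 31 (50.8%) in replicate 2, where 33.5% had one. The same 31 genes had a summit in both replicates, against 30.9% of all protein-coding genes, 6780 of 21951. Counting only peaks of at least 4-fold enrichment left 17 of the 61 (27.9%), against 16.9% of all protein-coding genes. A further 6 genes had one in replicate 1 alone, namely Fanci, Mcm3, Mcm5, Mcm6, Rad51d and Xrcc6, and 24 had none. The design has a single group, so shares are described and were not tested. All protein-coding genes include those that these cells do not transcribe.

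Genes with a summit in both replicates were 6 of 9 Ercc genes, 6 of 11 Rad5 genes, 5 of 11 Fanc genes, 3 of 9 Mcm genes, 3 of 6 Orc genes, 3 of 5 Rfc genes, 2 of 6 Xrcc genes and 3 of the 4 genes Brca1, Brca2, Atm and Atr. By function, 5 of 6 homologous recombination mediators and motors (Rad54b, with its summit in an exon shared with Fsbp, included), 5 of 7 nucleotide excision repair genes and 5 of 8 genes of the Fanconi anaemia core complex had one. At the other end stood the MCM2-7 helicase, with 1 of 6, and the end-joining genes Xrcc4, Xrcc5 and Xrcc6 and the ID2 pair Fanci and Fancd2, with none. Beside the 30.9% of all protein-coding genes, the Mcm and Xrcc genes, at 33.3% each, were close to the background, and with so few genes a family the counts are a description only.

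**Figure D1:**
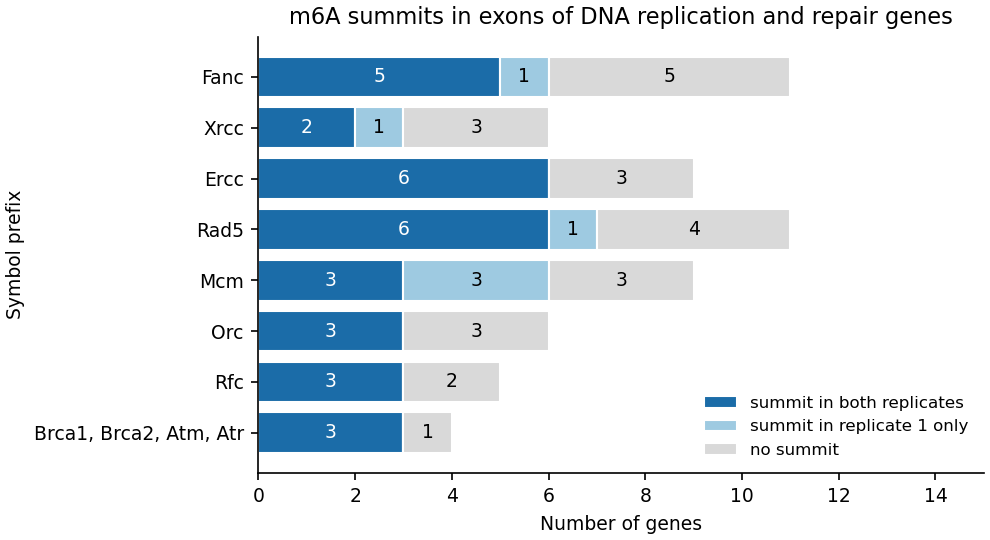
Number of genes (x axis) of each symbol prefix (y axis) with an exonic m6A summit in both replicates, in replicate 1 only, or with no summit. Ercc and Rad5 have the most genes with a summit in both, 6 each, and Mcm has 3 genes in each class.

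In the origin and helicase genes, peaks were few and mostly weak. Coordinates of peaks here and below are those of replicate 1. Of the ORC genes, Orc1, Orc2 and Orc6 had a summit in both replicates and Orc3, Orc4 and Orc5 in none. The peak of Orc2, in its 3′ UTR in the last exon (chr1:58463632-58464378), had 2.48-fold and 2.54-fold enrichment in replicates 1 and 2, on 162 and 170 IP reads. Orc1, the largest ORC subunit and an ATPase, had 2.36-fold and 2.47-fold enrichment at the stop codon (chr4:108614232-108614434), on 57 and 56 IP reads, with the summit at the same base. Orc6 is uncertain. Its shared summit (4.27-fold and 6.53-fold) lay in an exon also given to Vps35, while the peak at its own stop codon, 1.59-fold, was found in replicate 1 alone.

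Among the 6 subunits of the replicative helicase, Mcm2 alone had a summit in both replicates. It lay in exon 2 just after the start codon (chr6:88897419-88897622), with 3.69-fold and 3.44-fold enrichment on 122 IP reads in each replicate, and with the summit at the same base. Mcm3, Mcm5 and Mcm6 each had a stop-codon peak in replicate 1 and none in replicate 2, and Mcm4 and Mcm7 had no peak. Those of replicate 1 were high in reads and low in enrichment. Mcm3 had 181 IP reads over a background equal to 99.9 control reads (2.06-fold), Mcm5 183 over 146 (1.43-fold) and Mcm6 175 over 130 (1.54-fold). The median background of all exonic peaks in the 61 genes was 24.97 control reads in replicate 1. Mcm6 also had a peak in its first exon in replicate 1, 6.88-fold on 38 IP reads.

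Outside the helicase ring, Mcm9, which acts with MCM8 in homologous recombination, had one of the strongest exonic peaks of the 61 genes. In its last exon enrichment was 8.25-fold in replicate 1 and 6.77-fold in replicate 2, on 75 and 63 IP reads, and the summits were 2 nt apart. A second shared peak in the same last exon, 3.86-fold and 6.07-fold, rested on 50 IP reads in each. Mcm10, an essential initiation factor, had 2.92-fold and 2.80-fold enrichment in its last exon on 165 and 152 IP reads. Mcm8 had no exonic summit.

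In the clamp loader, Rfc2, Rfc3 and Rfc5 had a summit in both replicates, and Rfc1 and Rfc4 had none. In replicate 2 the −log10 q was only 2.26 in Rfc3 and 4.56 in Rfc5, and both were lost at a minimum of 5. All the summits of Rfc2, Rfc3 and Rfc5 lay in last exons. Rfc2 had 1.97-fold enrichment in each replicate on 170 and 175 IP reads (chr5:134597829-134598219), Rfc3 2.28-fold and 1.52-fold on 121 and 114 reads, and Rfc5 1.62-fold and 1.79-fold on 104 reads in each. Of the exonic peaks that matched one to one between replicates, these were the least enriched. Their backgrounds were high, with a median of 59.9 and 63.0 control reads over the peaks of the Rfc genes, against 16.5 and 14.0 over those of the Fanc genes. The strongest peak of Rfc5 in replicate 1, 2.49-fold on 88 IP reads in the 3′ UTR (chr5:117378871-117379120), had no counterpart in replicate 2. Rfc2 had a second peak, 4.34-fold and 3.64-fold, which lay in an exon shared with Lat2.

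Fanconi anaemia genes with a summit in both replicates were Fancb, Fance, Fancf, Fancl and Fancm. Fancf is an adaptor subunit of the core complex encoded by a single exon. It had the highest enrichment of all exonic peaks of the 61 genes in replicate 1. There it was 8.48-fold, with 126 IP reads over 15.98 control reads, and in replicate 2 it was 7.81-fold, with 122 IP reads (chr7:51861102-51861833, −log10 q of 68.2 and 59.2). Fancm, a DNA translocase that recruits the core complex to damage, had 6 peaks in replicate 1 and 5 in replicate 2. In its exon 14, of 1864 nt, one shared peak had 8.26-fold and 5.55-fold enrichment with the summit at the same base, and another had 7.02-fold and 7.57-fold. Exon 20, of 561 nt, held one more (4.96-fold and 3.91-fold). Fancl, the ubiquitin ligase subunit, had a peak 75 nt and 100 nt upstream of its start codon, inside a first exon of 1176 nt (chr11:26386814-26387440). Its enrichment was 6.76-fold and 6.66-fold.

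Fance had 3.32-fold and 5.26-fold enrichment in exon 2, and Fancb 3.80-fold and 4.55-fold in exon 2. The Fancb summits were 426 nt apart, 61 nt upstream of the start codon in replicate 1 and 365 nt downstream of it in replicate 2. Of the ID2 pair, which the core complex ubiquitinates, Fancd2 had no summit and Fanci had one in replicate 1 alone, 2.14-fold on 89 IP reads, at a position also given to Polg. Fanca, Fancc and Fancg, of the core complex, and Fancd2os had no exonic summit.

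Nucleotide excision repair genes carried peaks in several places. Ercc4, the nuclease XPF, had 2 shared peaks, 5.52-fold and 5.67-fold in the coding part of its last exon (chr16:13147447-13148663, 125 and 124 IP reads) and 6.39-fold and 6.35-fold in exon 8, of 601 nt. Ercc2, the helicase XPD of TFIIH, had 4.26-fold and 4.70-fold enrichment in the 3′ UTR (chr7:19394686-19395357) on 152 and 148 reads. Ercc3, the TFIIH subunit XPB, was enriched 4.81-fold and 6.01-fold in exon 2, near the start codon. Ercc5, the nuclease XPG, had 4.07-fold and 4.76-fold enrichment in exon 8, with summits 470 nt apart in one broad region. Ercc6, the CSB protein of transcription-coupled repair, had 3 shared peaks, of which the highest (4.94-fold and 5.57-fold) lay in exon 5. Ercc1, the partner of XPF, and Ercc8, the partner of CSB in that pathway, had none.

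Ercc6l is a DNA translocase of mitosis that shares the prefix but not the repair pathway. Its coding sequence lies almost whole in the last of 2 exons, of 5118 nt. Replicate 1 had 4 peaks there, and replicate 2 had 2, of which one of 2837 bp overlapped 3 of replicate 1. The strongest was 4.96-fold and 4.47-fold on 121 IP reads in each replicate, with summits 451 nt apart. Ercc6l2 had no summit in the exons used.

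In homologous recombination, Rad51d had a peak in replicate 1 alone, 82 nt from the transcript start (5.20-fold on 36 IP reads). Rad52 had a peak at the stop codon (chr6:119922381-119922752), 4.31-fold and 4.44-fold, and one in exon 8, which has 200 nt, 3.56-fold and 4.17-fold. Rad54l2, which encodes a protein related to the RAD54 motor, had 5.09-fold and 6.15-fold enrichment within a last exon of 5629 nt. Rad50, of the MRN complex that binds DNA ends, had 3.23-fold and 3.36-fold near the stop codon, and a first-exon peak of 7.85-fold in replicate 2 alone. Rad51ap1 had 3.26-fold and 2.54-fold near the stop codon. Rad54b is uncertain, since its summit (5.64-fold and 8.41-fold) lay in an exon shared with Fsbp. Rad51b, Rad51c, Rad51ap2 and Rad54l had no exonic summit.

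Of the Xrcc genes, Xrcc2 and Xrcc3, had summits in both replicates. Xrcc2 had 3.96-fold and 5.78-fold enrichment in coding sequence of its last exon (chr5:25692284-25692942), on 86 and 90 reads. Xrcc3 had 2 shared peaks in its last exon, at 2.99-fold and 2.68-fold near the stop codon and at 2.74-fold and 2.62-fold in the 3′ UTR. Both are recombination genes by function. Xrcc1, a scaffold of single-strand break repair, Xrcc4 and Xrcc5 had no exonic summit. Xrcc6, the Ku70 gene, had a stop-codon peak in replicate 1 alone, 1.75-fold, with 138 IP reads over 89.9 control reads.

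Brca2, a mediator of recombination, had the most peaks of the 61 genes, 8 in replicate 1 and 6 in replicate 2. Exon 11, of 4809 nt, held 4 summits in each replicate. The strongest peak of the gene lay 4590 nt and 4603 nt into that exon (chr5:150542951-150543417), with 8.25-fold and 8.21-fold enrichment on 75 IP reads in replicate 1, where the background was 9.39 control reads, and on 68 in replicate 2. No GGAC lay near it, the nearest being 221 nt and 208 nt away. The next exon upstream, exon 10 of 1107 nt, held 2 summits and 1, and the last exon had a peak of 4.73-fold and 5.66-fold.

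Brca1, a ubiquitin ligase subunit that acts earlier in the same pathway, had all its summits in exon 10, of 3315 nt. There were 3 in replicate 1 and 4 in replicate 2, spread from 834 nt to 2982 nt into the exon. Their enrichment ran from 2.63-fold to 4.11-fold, which overlaps the range in Brca2, from 2.70-fold to 8.25-fold. The 3315 nt held 11 copies of GGAC, and the 4809 nt of Brca2 exon 11 held 9.

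Atm and Atr, the kinases that signal damage, were unlike each other. Atm, with 64 exons, had 2 shared peaks. That in the last exon (chr9:53439499-53440030) was 5.38-fold and 5.04-fold on 89 IP reads in each replicate, with summits 1 nt apart and 87 nt and 86 nt before the stop codon. The other, in exon 2 at the start codon, had 3.87-fold and 4.77-fold enrichment but only 13 and 14 IP reads. None was found in the exons between. Atr had no summit in any of its 47 exons, including exon 4, which has 878 nt and no copy of GGAC.

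**Figure D2:**
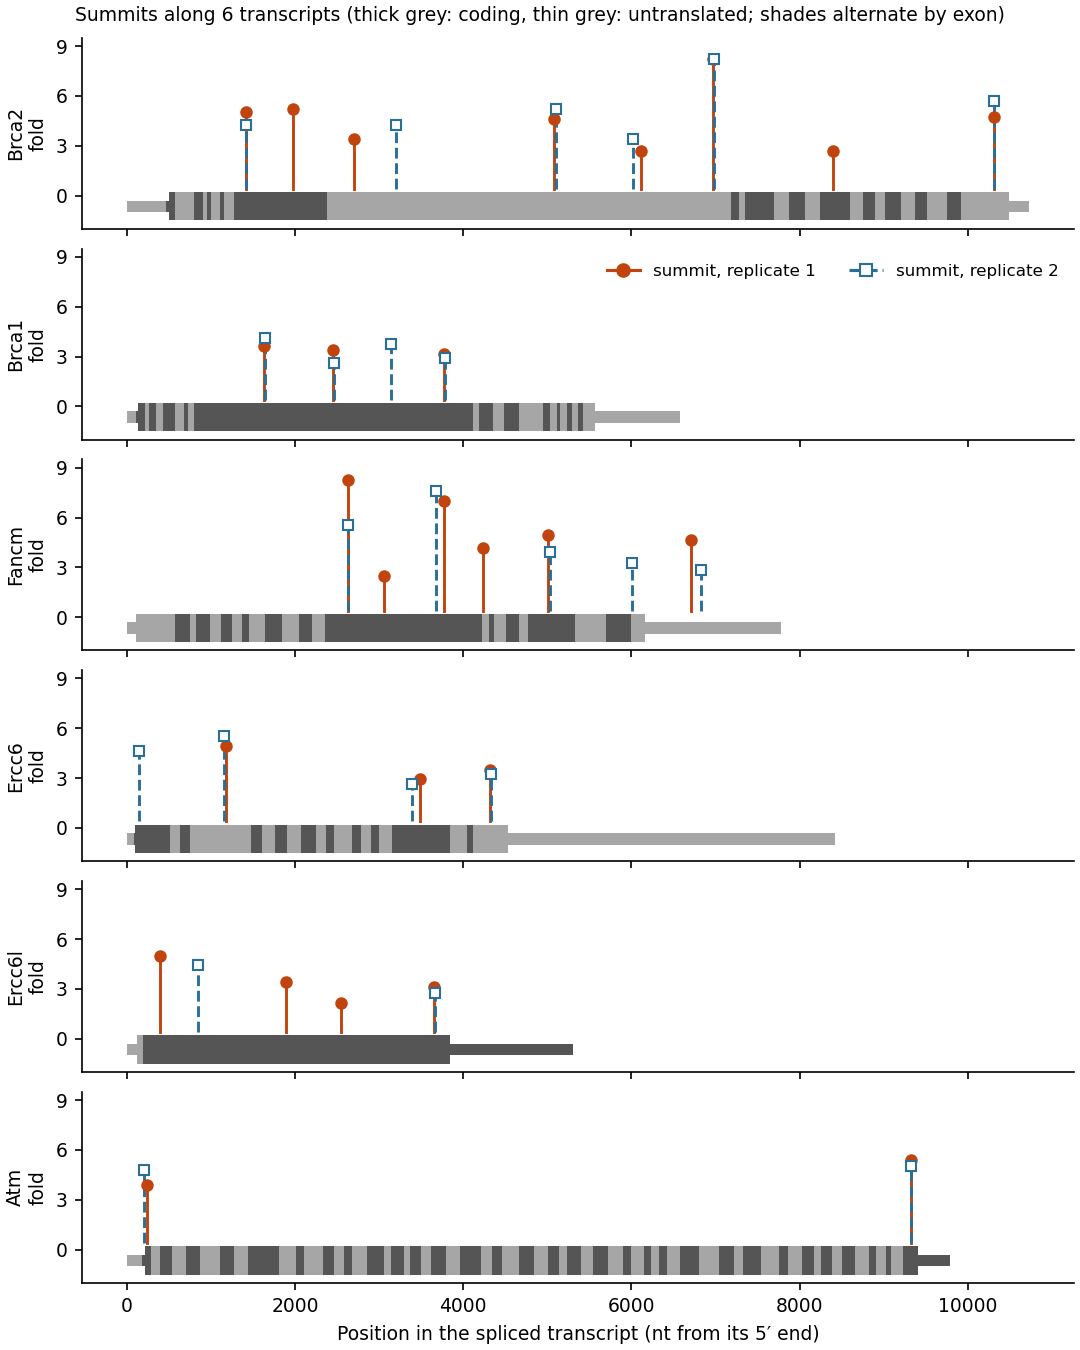
Position of each summit along the spliced transcript (x axis, nt from the 5′ end) and its fold enrichment (y axis, unitless ratio) in replicate 1 (filled circles) and replicate 2 (open squares) for 6 genes, with exons in alternating shades below. Summits of Brca1 lie in its one long exon, those of Ercc6l in its long last exon, and those of Atm at both ends of the transcript.

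Summits were most frequent in long internal exons and in last exons. The genes were described by the transcript with the longest coding sequence. Internal exons of at least 400 nt, called long here, numbered 18 in the 61 genes, and 11 of these (61.1%) held a summit in both replicates, against 37.5% over all protein-coding genes. Of 884 shorter internal exons, 4 did (0.452%), against 0.231%. Last exons held one in 22 of 60 cases (36.7%), against 24.2%, and first exons in 2 of 60 (3.33%), against 5.09%.

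In genes that had a summit in both replicates the difference from the rest was small for last exons and long exons. There, 11 of 14 long internal exons (78.6%) held a summit in both replicates, against 72.3% in all such protein-coding genes, and 22 of 30 last exons (73.3%), against 75.2%. First exons held one in 2 of 30 cases (6.67%), against 15.9%.

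**Figure D3:**
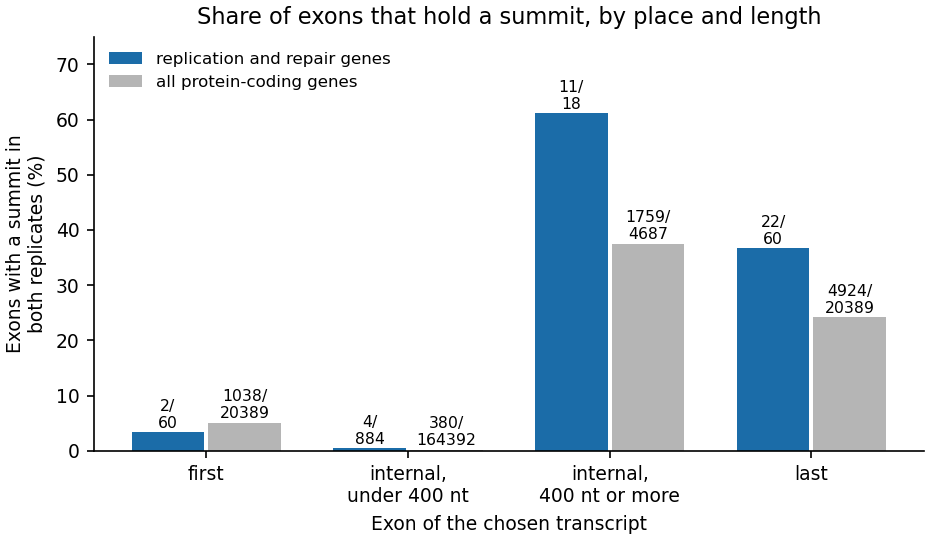
Percent of exons with a summit in both replicates (y axis) by place and length of the exon (x axis), for the 61 replication and repair genes and for all protein-coding genes, with the number of exons with a summit over the number of exons above each bar. Long internal exons stand highest in both sets, at 61.1% and 37.5%.

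The 11 long internal exons with summits belonged to Brca2 (exons 10 and 11), Brca1, Fancm (exons 14 and 20), Ercc6 (exons 5 and 18), Ercc4, Ercc5, Fancb and Fance. All 11 were among the 14 of at least 500 nt, and none of the 4 shorter ones held a summit in both replicates. The 3 exons of at least 500 nt without a shared summit were exon 2 of Xrcc6 (1317 nt, 10 copies of GGAC), exon 4 of Atr and exon 3 of Fancd2os (579 nt). Those of Xrcc6 and Fancd2os are coding only in part, as is exon 2 of Fancb, which held a summit. Exon 5 of Ercc6 and exon 2 of Fancb held a summit and had no GGAC. The 4 short internal exons with a summit in both replicates were those of Ercc3, Mcm2, Rad52 and Atm named above, and the summits of Ercc3, Mcm2 and Atm were close to the start codon.

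Inside long internal exons, which have at least 400 nt, the summits mostly lay away from the exon ends. Such distances depend on exon length, and no value expected from length was computed. The summits lay a median of 334 nt and 317 nt from the nearer end, and 1 of 19 in each replicate lay within 100 nt (5.26%). Over all placed summits in such exons the medians were 266 nt and 267 nt, with 5.80% and 5.10% within 100 nt. Brca1, Brca2 and Fancm together held 13 of the 19 in replicate 1 and 12 of the 19 in replicate 2.

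By call, the longest exon of the transcript had a median of 1343 nt in the 31 genes with a summit in both replicates, 952 nt in the 6 with one in replicate 1 alone and 661 nt in the 24 with none. The last exon had medians of 1149 nt, 656 nt and 429 nt. Exon number did not follow that order, with medians of 14, 17 and 14.5. In all protein-coding genes the longest exon had a median of 1704 nt with a summit in both and 980 nt with none, so that the same order held outside these families. The ranges overlapped, from 348 nt to 5629 nt with summits and from 223 nt to 2776 nt without. Of the 13 genes with a long internal exon, 9 had a summit in both replicates (69.2%, against 50.2% of all protein-coding genes with such an exon), and of the 47 multi-exon genes without one, 21 did (44.7%, against 28.1%).

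**Figure D4:**
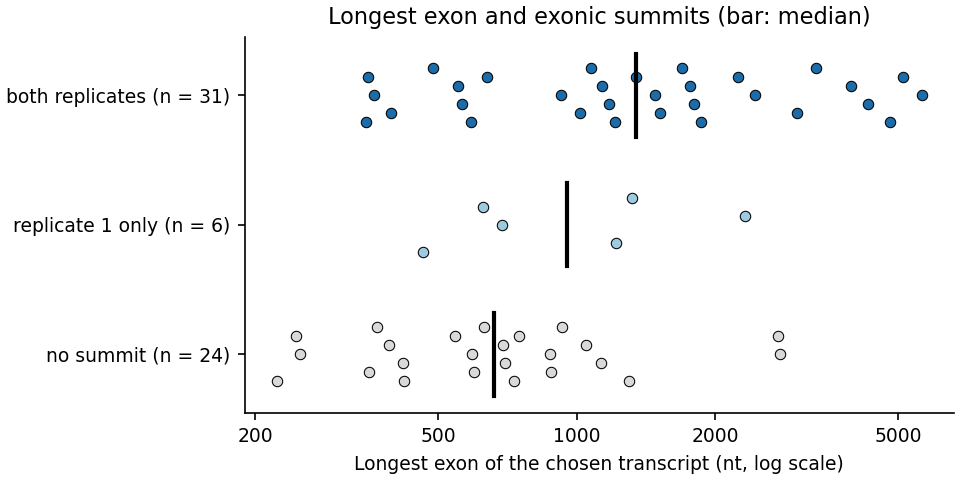
Longest exon of the chosen transcript (x axis, nt, log scale) of each of the 61 genes, grouped by whether an exonic summit was found in both replicates, in replicate 1 only or not at all, with the median as a bar. The medians fall from 1343 nt to 952 nt and 661 nt, and the groups overlap.

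Along the transcript, 66 summits of replicate 1 and 54 of replicate 2 could be placed on the chosen transcript of a single gene. In coding sequence, more than 200 nt from either codon, lay 46.8% ± 1.90 (SD, n = 2 replicates), against 33.9% of all placed summits. The exact 95% intervals, which cover counting error only and treat peaks as independent, were 33.1% to 58.2% in replicate 1 and 34.3% to 62.2% in replicate 2. The interval of replicate 1 holds the value of all summits, 34.0%, and that of replicate 2 lies just above 33.8%. Within 200 nt of the stop codon lay 30.6% ± 3.93 (SD, n = 2), against 30.2%. In the 3′ UTR beyond it lay 9.18% ± 0.119 (SD, n = 2), against 17.3%, with upper limits of 18.7% and 20.3%. Start-codon summits made up 11.8% ± 1.67 (SD, n = 2), against 15.04%. In long internal exons lay 31.99% ± 4.52 (SD, n = 2), against 20.6%, and the lower limits were 18.3% and 22.7%, so that only in replicate 2 did the interval leave out the value of all summits.

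Motifs were about as frequent around these summits as around the rest. A copy of GGAC was present within 50 nt in 57.6% and 55.6% of cases, a mean of 56.6% ± 1.43 (SD, n = 2), against 56.8% of all placed summits. The wider motif DRACH was present in 94.9%, against 93.9%. Some single summits had no GGAC in that window in either replicate, as in exon 11 of Brca2 above. In Ercc6 the summits in exon 5 were 322 nt and 344 nt from the nearest GGAC, and DRACH lay within 10 nt. In Ercc6l the stop-codon summits were 627 nt and 618 nt from it.

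Replicates were close in the peaks they shared. Of 70 exonic peaks in replicate 1, 55 overlapped a peak of replicate 2 (78.6%, 95% interval 67.1% to 87.5%), against 84.2% of all exonic peaks. In replicate 2 it was 52 of 58 (89.7%, 78.8% to 96.1%), against 86.8%. The 47 pairs that matched one to one all had enrichment within 2-fold of each other, and the log2 ratio between replicates had an SD of 0.30, against 0.46 over all exonic pairs. Enrichment was higher in replicate 2 in 24 of the 47, against 4983 of the 9766. The summits of a pair were a median of 10 nt apart, against 16 nt.

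Peaks found once differed between the replicates. Replicate 1 had 15 of them and replicate 2 had 6, and their median IP reads were 84 and 27.5, against 92 and 90 for shared peaks of the same genes. Over all exonic peaks found once, the medians were 29 and 27 reads. Those of replicate 1 include the weakly enriched peaks of Mcm3, Mcm5, Mcm6 and Xrcc6 described above. Exonic peaks of the 61 genes had a median enrichment of 3.74-fold in replicate 1 and 4.46-fold in replicate 2. Over all exonic peaks it was 4.18-fold and 4.39-fold.

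Related genes outside these symbols were examined in 2 lists. Of 41 other replication genes 24 had a summit in both replicates (58.5%), and of 75 other repair genes 55 did (73.3%). The shares were 50.8% of the 61 genes and 30.9% of all protein-coding genes. As with Orc6 and Rad54b, 3 of the 24 and 1 of the 55 are uncertain because of exons shared with another gene. Enrichment here is that of the peak of highest −log10 q of a gene in each replicate. The values of a gene can therefore belong to different peaks. The genes named here are the 5 of each list with the highest mean −log10 q, and others had higher enrichment. Among repair genes they were Palb2, the partner of BRCA2, with 8.01-fold and 8.64-fold enrichment, and Parp1, the break sensor, with 7.08-fold and 7.30-fold. Ung, the uracil glycosylase, had 5.07-fold and 5.74-fold, and the nuclease genes Dclre1b and Dclre1c 6.85-fold and 4.47-fold, and 6.81-fold and 7.88-fold. Among replication genes they were Gins3 (6.54-fold and 6.80-fold) and Gins1 (11.7-fold and 5.49-fold) of the GINS complex, the origin factor Ticrr (6.16-fold and 3.93-fold), Top1 (5.25-fold and 7.62-fold) and Tyms (5.80-fold and 5.77-fold), the thymidylate synthase. Cdc45, the partner of MCM2-7 and GINS in the active helicase, had none.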

How the data were processed

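meRIP-seq peaks of 2 IP samples were analysed, and the 2 input samples had no file used here. Reads were aligned with HISAT2 and peaks called for each replicate with MACS2 (version 2.1.1.20160309, per the labels, build mm10, that is GRCm38). The peak threshold and the control library are not given in the sources used here, and the lowest −log10 q was 1.31 and 1.30. For each peak the authors deposited the fold enrichment, a ratio of IP to background at the summit, with the −log10 q-value and the −log10 p-value of MACS2. The deposited offset gave the summit (start plus offset). The deposited peak score was not used.

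Summits were set on GENCODE M21 exons (basic set). Transcript positions used the transcript with the longest coding sequence. Since no strand is recorded for a peak, a summit that falls in exons of 2 genes counts for both. IP reads and background were computed from fold and p. A whole number of IP reads matched 100% of peaks in each replicate. On 3000 simulated peaks, less those of the most extreme p, read number and background were both recovered for 99.8% of peaks. The simulated peaks had lower backgrounds and higher enrichment than the stop-codon peaks of Mcm5 and Mcm6, so recovery was not simulated for such peaks. All 549 simulated positions were placed. Sequences are those of the GENCODE M21 transcripts. Python 3.11.15, numpy 2.4.6, SciPy 1.17.1 and matplotlib 3.10.9 were used. No test between groups was possible. Shares carry exact Clopper-Pearson 95% intervals, and counts stand beside the same count over all protein-coding genes. Labels call the IP molecule total RNA and the input polyA RNA, which could affect the background.

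Full values are given for the 3 genes of each prefix with the highest mean −log10 q of their strongest peak, for Brca1, Brca2, Atm and Atr, for genes with a summit in 1 replicate only, and for the top 5 of each other list. Further genes were named after their values were seen. The genes, the lists and the measures were chosen with earlier results of these data known. Alternatives covered the exon set, peak thresholds, overlap and window sizes. The values of 1 gene and the sequence at 1 peak are not reported here.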

Additional observations from a re-analysis of the deposited data

How the results depend on the processing

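The number of genes with a summit in both replicates, 31, lay between 29 and 39 in all alternatives but a minimum fold enrichment of 4. These used any overlap in place of the summit, the comprehensive or the chosen transcripts, or introns included. Others left out summits shared with other genes or set a −log10 q of at least 5. Over these settings the share was 47.5% to 63.9%, against 28.9% to 34.2% of all protein-coding genes. The 39 came with introns included, where the gains Fanca, Orc5 and Xrcc6 rested on peaks in exons of Zfp276, Gm15421 and Desi1. The other gains, Ercc6l2, Fancc, Mcm8, Orc3 and Xrcc4, had a shared peak outside exons of other genes. With a fold enrichment of at least 4 the number was 17, or 27.9%, against 16.9% of all protein-coding genes. Brca1, Mcm2, all 3 Rfc genes and 9 others were then lost. Replicate 2 alone gave 31 and replicate 1 alone 37. The share of peaks that overlapped the other replicate, 83.6% pooled, was 70.3% for summits within 100 bp and 71.4% at a fold of at least 4. With long internal exons set at 200 nt their share was 37.8% (24.6% of all placed summits). With a window of 400 nt the stop-codon share was 36.5%, below the 42.6% of all placed summits, and with 100 nt the GGAC share was 74.2%, against 76.4%. Leaving out a replicate gave 28.8% to 35.2% for long internal exons, 27.8% to 33.3% for the stop codon and 55.6% to 57.6% for GGAC. No paired analysis was possible because the design has a single group of IP samples and no test. Depth limits genes with few reads, and no library total is known.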

Other observations

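Some genes without an exonic summit carried peaks elsewhere between their ends. Ercc6l2 had 2 shared peaks in exons of nonsense-mediated decay and processed transcripts of the comprehensive annotation, 4.37-fold and 4.44-fold in one and 5.83-fold and 6.11-fold in the other, the second on 122 and 117 IP reads. Orc3 had 3 shared peaks, one in an exon of a processed transcript, and the strongest had 10.4-fold and 10.6-fold enrichment. In Xrcc4 the stronger of 2 shared intronic peaks, 8.01-fold and 11.0-fold, rested on 14 and 15 IP reads. The shared peak between the ends of Fanca, on 111 and 97 IP reads, lay in an exon of Zfp276, and 2 of the 3 in Fancc lay in exons of 2010111I01Rik. Brca2 had a shared peak, 6.04-fold and 6.57-fold, in an exon of a transcript annotated as a retained intron.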
